A study of Mus musculus with 28 samples.

Results

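The 40 genes described here are macrophage and monocyte genes: the growth factor, Fc, scavenger and pattern recognition receptors, adaptors, transcription factors and enzymes by which macrophages are commonly recognised. They were taken by name as a list, each with its brightest probe set, and 39 of the 40 had a probe set of their own on the arrays, among 18193 genes in all. Lilrb4a was on a probe set shared with another gene and was not analysed here. The genes were followed in primary lymphoma cells from lymph nodes of C57BL/6 Emu-myc transgenic mice, in which an immunoglobulin enhancer drives Myc in B cells. All cultures, controls included, carried a retroviral Bcl2 (MSCVpuro) with puromycin selection and were grown on a feeder of gamma-irradiated NIH 3T3 cells, which are mouse fibroblasts. Each of 14 lymphomas gave 1 array of untreated cells and 1 array of cells treated in vitro with 0.05 µg/ml Adriamycin (ADR, doxorubicin, which damages DNA) for 5 days, so that there were 28 arrays and 14 pairs. The labels name no sort or gate, and call 11 of the 14 lymphomas (all but 5043, 9583 and 9584) arrays of an earlier series. The labels give no age for the mice. Values are log2 expression on arrays, changes are ADR minus untreated within a lymphoma, and the number of arrays limits the precision. The comparison of the groups addresses what 5 days of ADR does to unsorted cultures of lymphoma cells protected from apoptosis.

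Macrophages and monocytes develop under the transcription factors PU.1 (gene Spi1) and the C/EBP family, and depend on signalling through the receptor Csf1r. Their activating Fc receptors and Trem2 signal through the small membrane adaptors Fcer1g and Tyrobp, which carry an activating tyrosine motif. The inhibitory Fc receptor Fcgr2b, Pirb and Sirpa carry inhibitory motifs. Macrophages take up debris through scavenger receptors such as Msr1 and Marco. They clear apoptotic cells through Mertk, Axl and the complement component C1q, and digest what they take up in lysosomes. Several of the genes are also expressed elsewhere: Fcgr2b, Spi1 and Pirb in B cells, Axl and Tlr4 in fibroblasts, Itgax in dendritic cells and Fcer1g in mast cells. In bulk cultures, a larger share of cells of a type and more RNA per cell cannot be told apart.

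Emu-myc lymphomas are of the B-cell lineage, and the arrays carried B cell markers at high levels, with a mean of 11 markers between 8.83 and 10.02 in untreated arrays. The mean of 25 fibroblast markers ran from 4.56 to 5.43 in untreated and from 4.98 to 9.39 in ADR arrays, highest in lymphomas 403 and 5560, and 24 of the 25 rose. Its part in the changes of the macrophage genes was examined by giving each change at no fibroblast change. The ADR array of lymphoma 1570 stood apart in RNA quality, with a 3' minus 5' signal of Gapdh of 0.917 where the ADR arrays had a median of 0.0585. Without lymphoma 1570 the macrophage genes called numbered 29.

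Untreated lymphomas differed widely in macrophage gene expression. The median SD of the 39 genes over the 14 untreated arrays was 1.20, against 0.253 for all genes. Of the 39, 23 had an SD above the 95th percentile of all genes and 13 above the 99th. The mean level of the 39 genes was lowest in lymphomas 1570 (5.67), 1467 (5.76) and 5043 (5.82), and highest in 5560 (8.31), 9584 (8.10) and 6054 (7.85). Cd14, the co-receptor for bacterial lipopolysaccharide, had the widest spread together with the arginine-degrading enzyme Arg1, each with an SD of 2.37. Next came the lysozyme gene Lyz2 (2.29), the itaconate-producing enzyme Acod1 (2.18), the lysosomal membrane glycoprotein Gpnmb (2.07), the macrophage surface marker Adgre1 (1.96), Fcer1g (1.94), Csf1r (1.92), Ms4a6d (1.90), Marco (1.81) and C1qb (1.81). At the other end, Ccr2, the receptor that guides monocytes, had an SD of 0.13 by its brightest probe set. The integrin gene Itgax (0.20) and the haemoglobin scavenger receptor Cd163 (0.21) were next. Of the 39 genes, 11 had a mean untreated level below 5.78, the median level of all genes, and the levels of low genes are compressed on this scale.

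**Figure D1:**
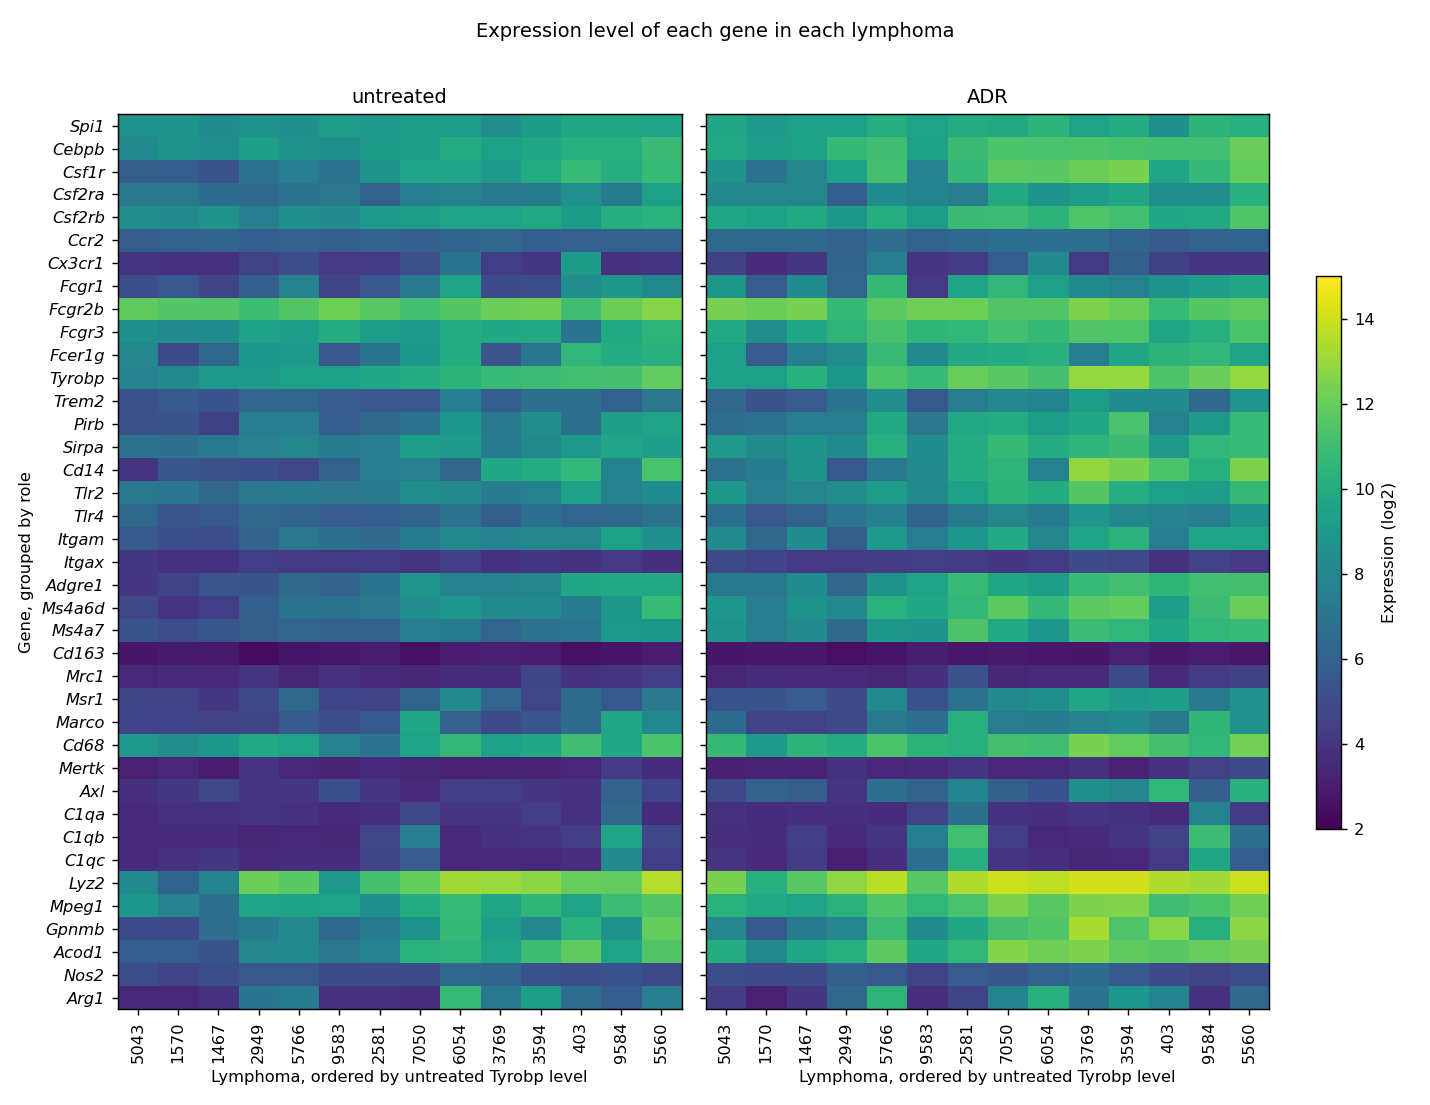
Log2 expression of the 39 genes (rows, grouped by role) in the untreated (left) and ADR (right) array of each of 14 lymphomas (columns, ordered by untreated Tyrobp level); colour is the level from 2 to 15. Lyz2 and Fcgr2b are the brightest rows, Cd163 is dark throughout, and most of the genes are brighter in the ADR arrays, while C1qb and C1qc are bright in a few lymphomas.

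After ADR, 29 of the 39 genes were higher and 0 lower at a limma adjusted p under 0.05 (Benjamini-Hochberg over 18193 genes), where 15.3% of all genes were higher and 13.4% lower. At least 2-fold rises were called for 26, against 3.29% of all genes, and 13 were called and higher in 14 of 14 lymphomas, against 2.87% of all genes. The median change of the 39 genes was 1.25, against -0.00 for all genes. With each array centred on its median, which shifts the median gene by 0.0985, 27 of the 39 were higher and 0 lower, and the split over all genes moved from 2790 higher and 2435 lower to 2007 higher and 4207 lower. Every lymphoma had a higher mean level of the genes after ADR. Fitted by probe set, 43 of the 70 probe sets of these genes were higher and 0 lower. Some called genes had a dimmer probe set without a call, with changes of 0.06 for Axl, 0.31 for Csf2ra and 0.46 for Gpnmb. The same held for Marco (0.92), Ms4a6d (0.003) and Tlr4 (-0.03). The 10 genes without a call were Cx3cr1, Fcgr2b, Cd163, Mrc1, Mertk, C1qa, C1qb, C1qc, Nos2 and Arg1. For none of the 39 did every ADR array lie above every untreated array (0 of 39, against 0.0605% of all genes), so the groups overlapped for each gene. In a fit that ignores the pairing 24 of the 39 were higher, and Csf1r, Fcer1g, Cd14, Marco and Gpnmb were not called.

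**Figure D2:**
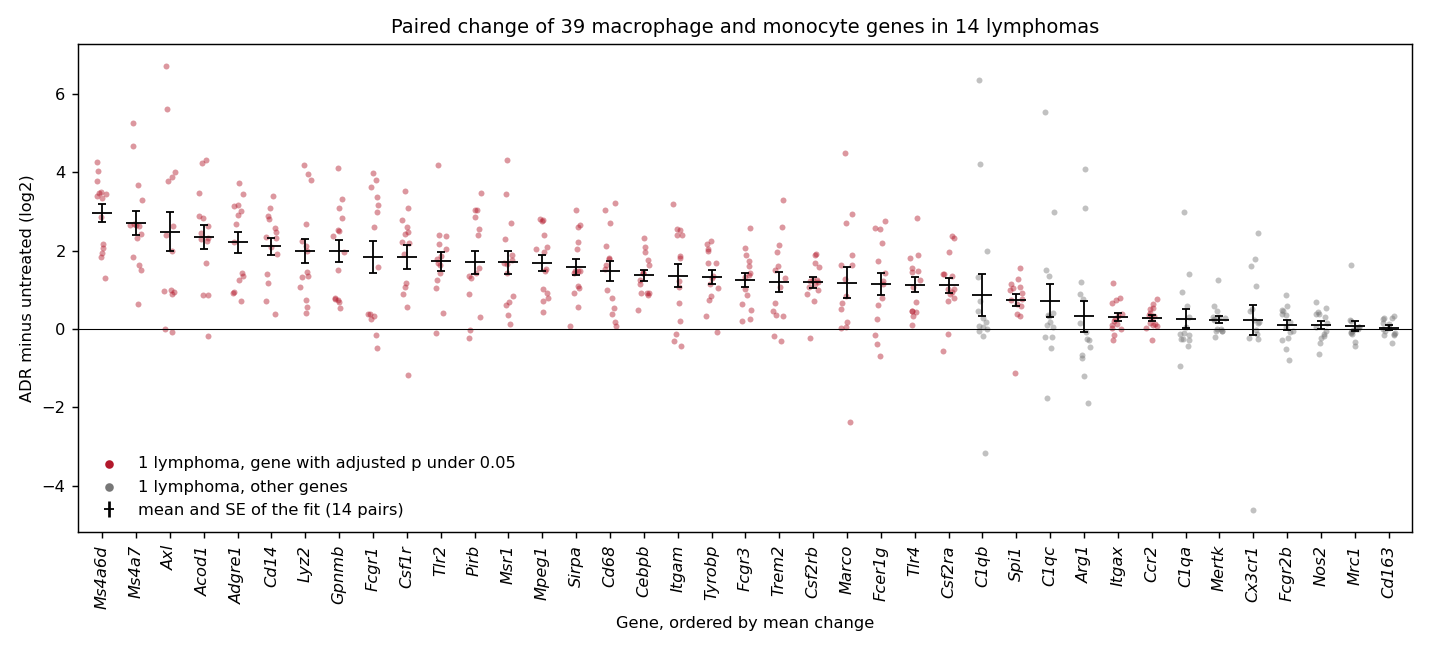
ADR minus untreated on the log2 scale for each of 39 genes, ordered by mean change; each point is 1 lymphoma, and the bar and whisker are the mean and the SE of the limma fit over 14 pairs. Points are coloured red for the 29 genes with an adjusted p under 0.05; Ms4a6d, with a mean of 2.96, leads the order and Cd163, at 0.04, ends it.

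Both lineage transcription factors rose. Cebpb, which drives inflammatory gene expression, ran from 8.23 to 10.87 (median 9.27) in untreated and from 9.22 to 12.01 (median 11.05) in ADR arrays and rose by 1.37 ± 0.13 (SE; adjusted p = 4.70e-06), in 14 of 14 lymphomas. Lymphoma 5560 was highest in both groups. Spi1, which encodes PU.1, ran from 8.26 to 9.66 (median 9.04) in untreated and from 8.54 to 10.42 (median 9.82) in ADR arrays and rose by 0.74 ± 0.16 (SE; adjusted p = 0.00209). It was higher in 13 of 14 lymphomas and fell in 403, from 9.66 to 8.54, which was the highest untreated and the lowest ADR value.

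The letters GAGGAAG, a common PU.1 core with its flanks, were searched on both strands (as GAGGAAG or CTTCCTC) in the 250 bases before RefSeq start sites (GRCm38.p6). The set of promoters used here held 26 of the members, and the other members were not searched. The letters were found for 10 of the 26 members, against 12.0% of 27025 genes. The members with the letters are Axl, C1qc, Csf2ra, Fcgr1, Fcgr3, Itgam, Marco, Mrc1, Pirb and Trem2. Of these, Mrc1 and C1qc were not called after ADR, so the letters were also present in genes without a call. A match is a description of letters, and binding was not measured. Shown here are 3 of them, all of genes that rose after ADR, written 5' to 3' on the gene's strand with the letters in capitals; the match begins at position -84, -56 and -41 from the start for Itgam, Fcgr1 and Trem2. They lie at chr7:128062390-128062639 (plus strand), chr3:96293970-96294219 (minus strand) and chr17:48346151-48346400 (plus strand).
Itgam: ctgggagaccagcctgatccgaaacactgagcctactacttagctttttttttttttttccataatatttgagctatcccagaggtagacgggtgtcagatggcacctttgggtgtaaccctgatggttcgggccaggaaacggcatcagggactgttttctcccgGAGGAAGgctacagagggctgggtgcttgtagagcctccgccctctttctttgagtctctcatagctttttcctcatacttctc
Fcgr1: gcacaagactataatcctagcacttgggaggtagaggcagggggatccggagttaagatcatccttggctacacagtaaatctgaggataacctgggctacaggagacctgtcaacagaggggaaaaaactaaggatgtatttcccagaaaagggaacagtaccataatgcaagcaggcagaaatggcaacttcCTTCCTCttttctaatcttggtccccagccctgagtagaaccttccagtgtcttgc
Trem2: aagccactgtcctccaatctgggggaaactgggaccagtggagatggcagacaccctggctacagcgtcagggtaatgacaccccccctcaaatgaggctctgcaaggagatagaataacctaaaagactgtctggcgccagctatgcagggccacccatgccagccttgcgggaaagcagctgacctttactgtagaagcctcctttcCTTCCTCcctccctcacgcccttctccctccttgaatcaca

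All 3 growth factor receptor genes rose. Csf1r, the receptor for the growth factor that macrophages live on, ran from 5.31 to 10.81 (median 8.87) in untreated and from 6.86 to 12.41 (median 10.66) in ADR arrays and rose by 1.84 ± 0.30 (SE; adjusted p = 2.36e-04). It rose in 13 of 14 lymphomas, with the largest rise in 5766 (7.61 to 11.12), and fell in 403 (10.81 to 9.65), the highest untreated value. All 3 probe sets of Csf1r rose. Csf2rb, the shared beta chain of the GM-CSF and IL-3 receptors, ran from 7.62 to 10.31 (median 9.02) in untreated and from 8.88 to 11.41 (median 9.99) in ADR arrays and rose by 1.19 ± 0.14 (SE; adjusted p = 1.37e-05) in 13 of 14 lymphomas, the exception being 9584. Csf2ra, the alpha chain of the GM-CSF receptor, rose by 1.11 ± 0.20 (SE; adjusted p = 5.68e-04) in 12 of 14, highest in 5560 in both groups. Of the chemokine receptors, Ccr2 stayed within a narrow band, from 5.81 to 6.28 (median 6.01) in untreated and from 5.69 to 6.74 (median 6.33) in ADR arrays, and rose by 0.29 ± 0.08 (SE; adjusted p = 0.00854) in 13 of 14. Of its 4 probe sets 1 passed the threshold, and with centred arrays the call was lost (adjusted p = 0.0919). The dimmer probe sets of Ccr2 changed by 0.51 ± 0.33, 0.48 ± 0.35 and 0.29 ± 0.13 (SE), so the narrow band is that of the brightest.

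Fc receptors differed among themselves. Fcgr1, the high-affinity receptor for IgG, ran from 4.69 to 9.49 (median 5.71) in untreated and from 4.19 to 10.72 (median 8.81) in ADR arrays and rose by 1.84 ± 0.40 (SE; adjusted p = 0.00258) in 12 of 14. Lymphoma 9583 was lowest in both groups. Fcgr3, an activating receptor, ran from 7.07 to 10.44 (median 9.36) in untreated and from 8.42 to 11.46 (median 10.56) in ADR arrays and rose by 1.25 ± 0.17 (SE; adjusted p = 6.51e-05) in 14 of 14, the largest rise being in 403 (7.07 to 9.64). Fcgr2b, the inhibitory Fc receptor that B cells also carry, was high in every array, from 10.97 to 12.64 (median 11.62) in untreated and from 10.69 to 12.45 (median 11.97) in ADR arrays. Its change was 0.10 ± 0.12 (SE; adjusted p = 0.573) with 8 of 14 lymphomas higher, and the groups overlapped almost fully.

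Both adaptors were called higher in the paired fit. Tyrobp ran from 7.77 to 11.90 (median 9.86) in untreated and from 8.88 to 12.97 (median 11.36) in ADR arrays and rose by 1.32 ± 0.17 (SE; adjusted p = 4.02e-05). It was higher in 13 of 14 lymphomas and differed by -0.08 in 2949, the lowest ADR array. Fcer1g ran from 4.92 to 10.56 (median 8.37) in untreated and from 5.73 to 10.75 (median 9.61) in ADR arrays and rose by 1.14 ± 0.28 (SE; adjusted p = 0.00517) in 11 of 14. Lymphoma 1570 was lowest in both groups, and 5560, 2949 and 403 were the lymphomas without a rise. Its call was lost with lymphoma as a random block (adjusted p = 0.0710) and with no block (0.218). Trem2, a lipid-sensing receptor that signals through Tyrobp, rose by 1.20 ± 0.26 (SE; adjusted p = 0.00220) in 12 of 14, from a median of 5.98 to 7.69. Its second probe set, with a change of -0.06, did not pass the threshold. The inhibitory receptors Pirb and Sirpa rose too. Sirpa, which reads Cd47 on other cells, ran from 6.76 to 9.57 (median 7.79) in untreated and from 8.18 to 10.86 (median 10.06) in ADR arrays and rose by 1.58 ± 0.21 (SE; adjusted p = 4.12e-05) in 14 of 14, the smallest change being in 403 (0.07). Pirb rose by 1.71 ± 0.29 (SE; adjusted p = 3.91e-04) in 12 of 14.

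All 3 sensing receptors rose. Cd14 ran from 4.00 to 11.28 (median 6.89) in untreated and from 5.57 to 12.89 (median 9.35) in ADR arrays and rose by 2.11 ± 0.22 (SE; adjusted p = 7.44e-06) in 14 of 14 lymphomas. In both groups 5560, 403, 3594 and 3769 were the 4 highest and in the untreated arrays 5043 was lowest. Tlr2, which senses bacterial lipopeptides, ran from 6.27 to 9.42 (median 7.40) in untreated and from 7.52 to 11.58 (median 9.26) in ADR arrays and rose by 1.73 ± 0.25 (SE; adjusted p = 7.71e-05). It was higher in 13 of 14, with the largest rise in 3769 (7.40 to 11.58) and a change of -0.11 in 403. Tlr4, which senses lipopolysaccharide, ran from 5.44 to 6.91 (median 6.19) in untreated and from 5.55 to 8.77 (median 7.41) in ADR arrays and rose by 1.13 ± 0.19 (SE; adjusted p = 3.00e-04) in 14 of 14, with 1570 lowest in both groups. At no fibroblast change, the intercept of its changes regressed on those of the fibroblast markers, Tlr4 stood at 0.38 ± 0.24 (adjusted p = 0.377).

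**Figure D3:**
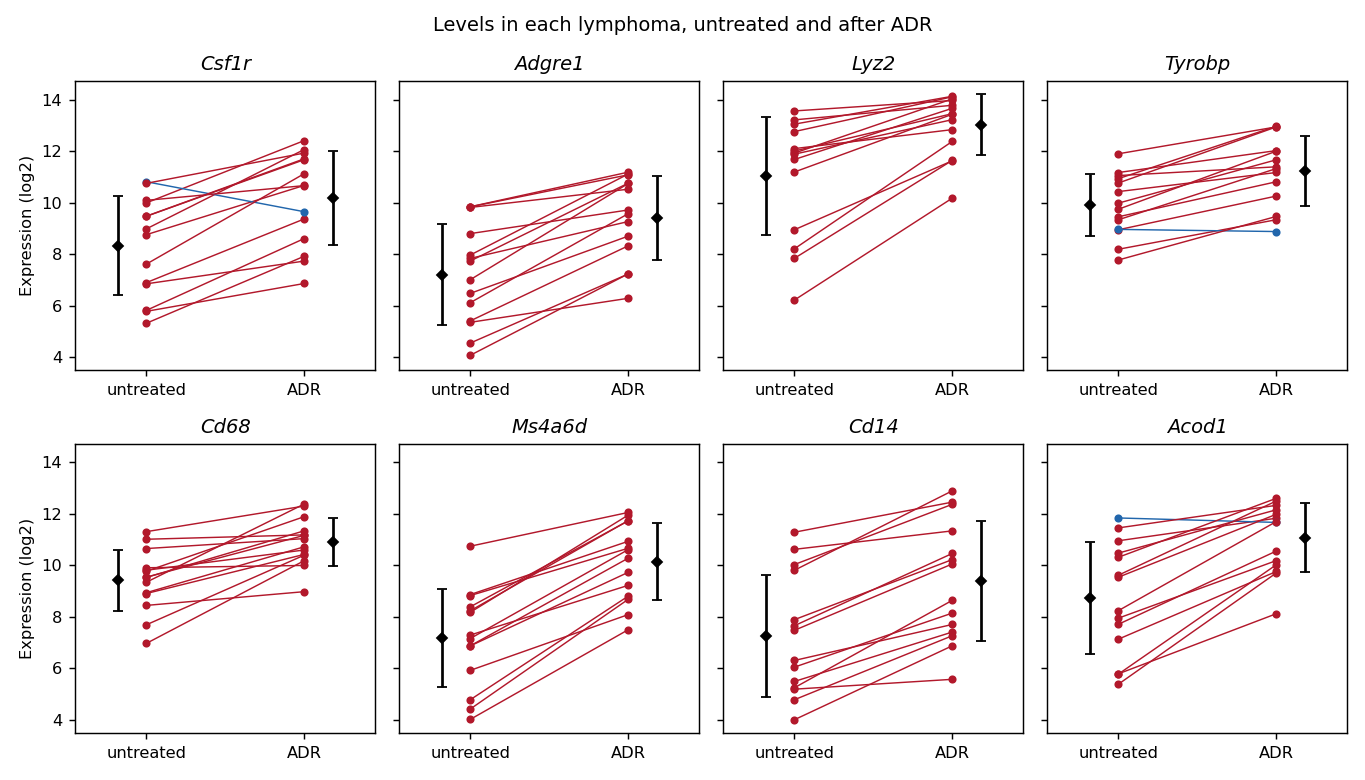
Log2 expression of 8 genes in each lymphoma, untreated and after ADR; each line joins the arrays of 1 lymphoma (red where ADR is higher, blue where lower), and diamonds with whiskers are the mean and SD of 14 arrays. Csf1r falls in 403 alone, Adgre1, Lyz2, Cd68, Ms4a6d and Cd14 rise in all 14, and Tyrobp and Acod1 in 13.

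Surface markers held the largest rises. Ms4a6d, a four-transmembrane protein of myeloid cells, ran from 4.02 to 10.74 (median 7.23) in untreated and from 7.50 to 12.05 (median 10.44) in ADR arrays and rose by 2.96 ± 0.23 (SE; adjusted p = 1.72e-06) in 14 of 14. Ms4a7, of the same family, ran from 5.08 to 8.96 (median 6.23) in untreated and from 6.48 to 11.35 (median 9.33) in ADR arrays and rose by 2.70 ± 0.30 (SE; adjusted p = 1.04e-05) in 14 of 14, with the largest rise in 2581 (6.11 to 11.35). Adgre1, which encodes F4/80, ran from 4.07 to 9.84 (median 7.37) in untreated and from 6.29 to 11.18 (median 9.64) in ADR arrays and rose by 2.21 ± 0.26 (SE; adjusted p = 1.75e-05) in 14 of 14. The integrin gene Itgam, which encodes CD11b, rose by 1.36 ± 0.29 (SE; adjusted p = 0.00225) in 11 of 14; 2949, 403 and 6054 did not rise. Itgax, the dendritic integrin CD11c, rose by 0.31 ± 0.10 (SE; adjusted p = 0.0299) in 12 of 14 and stayed at or below 5.02 in every array. That call was lost without lymphoma 1570 (adjusted p = 0.0595), 3594 (0.0613), 3769 (0.0550) or 5043 (0.0591).

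Of the scavenger receptors, Msr1 ran from 4.09 to 8.13 (median 5.21) in untreated and from 5.00 to 9.68 (median 7.67) in ADR arrays and rose by 1.70 ± 0.29 (SE; adjusted p = 3.66e-04) in 14 of 14, and all 4 of its probe sets rose. Cd68, a lysosomal glycoprotein, ran from 6.97 to 11.31 (median 9.53) in untreated and from 8.98 to 12.38 (median 10.88) in ADR arrays and rose by 1.48 ± 0.25 (SE; adjusted p = 3.70e-04) in 14 of 14. Lymphoma 2581 was lowest untreated, at 6.97, and stood at 10.18 after ADR. Marco ran from 4.50 to 9.80 (median 5.53) in untreated and from 4.53 to 10.48 (median 7.27) in ADR arrays and rose by 1.18 ± 0.39 (SE; adjusted p = 0.0341) in 13 of 14. It fell in 7050, from 9.80 to 7.44, and rose most in 2581, from 5.65 to 10.14. Its call was lost when any of the lymphomas 2581, 3594, 3769, 5043, 5766, 6054 and 9583 was left out, with adjusted p from 0.0533 to 0.0735. Cd163 and the mannose receptor Mrc1 stayed low, from 2.38 to 3.17 (median 2.87) in untreated and from 2.52 to 3.18 (median 2.86) in ADR arrays for Cd163 and from 3.39 to 4.66 (median 3.70) in untreated and from 3.36 to 5.23 (median 3.61) in ADR arrays for Mrc1. Their changes were 0.04 ± 0.06 (SE; adjusted p = 0.714) and 0.08 ± 0.12 (SE; adjusted p = 0.692). Mrc1 stood at 5.23 in the ADR array of 2581 and at or below 4.87 in all other arrays.

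Lyz2 ran from 6.21 to 13.56 (median 11.90) in untreated and from 10.17 to 14.13 (median 13.44) in ADR arrays and rose by 1.99 ± 0.31 (SE; adjusted p = 1.54e-04) in 14 of 14. Lymphomas 1570, 1467, 5043 and 9583 were the lowest untreated, at 6.21, 7.84, 8.20 and 8.95, and stood at 10.17, 11.64, 12.38 and 11.63 after ADR. Mpeg1, a pore-forming protein of macrophages, ran from 6.78 to 11.46 (median 9.55) in untreated and from 9.53 to 12.55 (median 11.29) in ADR arrays and rose by 1.69 ± 0.20 (SE; adjusted p = 1.96e-05) in 14 of 14. Gpnmb ran from 4.89 to 11.95 (median 8.11) in untreated and from 5.70 to 13.34 (median 10.54) in ADR arrays and rose by 1.98 ± 0.28 (SE; adjusted p = 7.67e-05) in 14 of 14, with 3769 highest after ADR. Acod1, which makes the metabolite itaconate, ran from 5.38 to 11.84 (median 8.89) in untreated and from 8.12 to 12.60 (median 11.68) in ADR arrays and rose by 2.35 ± 0.31 (SE; adjusted p = 3.72e-05) in 13 of 14. It was 11.84 untreated and 11.67 after ADR in 403. Nos2, the nitric oxide synthase of activated macrophages, changed by 0.10 ± 0.10 (SE; adjusted p = 0.514), with 8 of 14 higher, and Arg1 by 0.33 ± 0.39 (SE; adjusted p = 0.606), with 6 of 14 higher. The changes of Nos2 and Arg1 were smaller than the SD over untreated lymphomas (0.48 and 2.37). That also held for the called genes Lyz2 (1.99 against 2.29) and Gpnmb (1.98 against 2.07). It did not hold for Mpeg1 (1.69 against 1.26) and Acod1 (2.35 against 2.18).

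Genes for clearing apoptotic cells were led by Axl. Axl ran from 3.56 to 6.00 (median 4.09) in untreated and from 3.95 to 10.55 (median 6.11) in ADR arrays and rose by 2.48 ± 0.50 (SE; adjusted p = 0.00144) in 13 of 14, from 3.84 to 10.55 in 403 and from 4.61 to 10.23 in 5560. Fibroblast markers rose most in the same 2 lymphomas. Across lymphomas the change of Axl followed that of the fibroblast markers (r = 0.931, permutation p = 1e-05, the smallest that 100000 permutations can give, adjusted p = 3.90e-04 over 39 relations, rho = 0.829, permutation p = 5.30e-04, adjusted p = 0.0207). Without 403 and 5560 r was 0.849, and within the 11 lymphomas 0.944. At no fibroblast change Axl stood at -0.20 ± 0.33. Mertk ran from 3.04 to 4.29 (median 3.42) in untreated and from 3.13 to 4.96 (median 3.54) in ADR arrays and changed by 0.24 ± 0.09 (SE; adjusted p = 0.0703). Among the other 38 relations none passed an adjusted p of 0.05 by r, the next being Acod1 (r = -0.723) and Tlr4 (r = 0.704), each with adjusted permutation p = 0.0640. By rank, Tlr4 did pass (rho = 0.771, permutation p = 0.00196, adjusted p = 0.0382). The r of Tlr4 was 0.747 without 403 and 5560 and 0.677 within the 11. Without 403 and 5560, r also rose for other genes. Examples are Gpnmb (0.720, against 0.362 over all 14), Msr1 (0.713, against 0.572) and Trem2 (0.705, against 0.545). Sirpa (0.701, against 0.091) and Tyrobp (0.694, against 0.135) rose as well. It was below 0 for Lyz2 (-0.466), Acod1 (-0.451), Cd163 (-0.149) and Fcgr2b (-0.109). The r values without 403 and 5560 were not tested. Axl and Tlr4 are genes that fibroblasts also express, and whether RNA from the feeder contributed was not tested.

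The C1q genes, which encode the chains of the first complement component, were high in a few lymphomas only. C1qb stood at 9.59 in untreated 9584 and 7.54 in untreated 7050, and at or below 4.79 in the other 12. After ADR it was 11.06 in 2581, 10.91 in 9584, 7.61 in 9583 and 6.79 in 5560, and 7050 stood at 4.38. C1qc followed, with 8.22 and 5.71 untreated in 9584 and 7050, and 10.18, 9.71, 6.68 and 5.77 after ADR in 2581, 9584, 9583 and 5560. C1qa was lower, at 6.30 in untreated 9584, 6.79 in ADR-treated 2581 and 7.70 in ADR-treated 9584. Their changes were 0.27 ± 0.24 (SE; adjusted p = 0.466) for C1qa, 0.87 ± 0.54 (SE; adjusted p = 0.260) for C1qb and 0.73 ± 0.43 (SE; adjusted p = 0.236) for C1qc, with none called. Of 14 lymphomas C1qb rose in 11 and fell by 3.16 in 7050. C1qb and C1qc lie near each other on the minus strand of chromosome 4, and the 250 bases before each start site are shown because both genes moved in the same lymphomas (GRCm38.p6, chr4:136886201-136886450 and chr4:136892915-136893164); the capitals in C1qc mark CTTCCTC, with the match beginning at position -194, and C1qb holds no match.
C1qb: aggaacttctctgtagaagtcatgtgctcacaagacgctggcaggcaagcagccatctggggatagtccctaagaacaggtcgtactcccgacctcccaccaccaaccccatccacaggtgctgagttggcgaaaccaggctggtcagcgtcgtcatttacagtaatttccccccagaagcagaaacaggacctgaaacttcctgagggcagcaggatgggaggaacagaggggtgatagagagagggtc
C1qc: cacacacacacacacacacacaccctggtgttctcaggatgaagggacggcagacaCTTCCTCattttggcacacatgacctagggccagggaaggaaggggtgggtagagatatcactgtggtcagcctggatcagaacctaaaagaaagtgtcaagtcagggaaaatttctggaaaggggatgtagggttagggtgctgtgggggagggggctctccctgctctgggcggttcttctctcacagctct

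Cx3cr1, the fractalkine receptor of patrolling monocytes, was also high in few lymphomas. Untreated it was 9.06 in 403, 7.03 in 6054 and at or below 5.24 in the other 12. After ADR it was 4.44 in 403, 8.13 in 6054, 7.49 in 5766 and 6.18 in 2949. Its change was 0.23 ± 0.39 (SE; adjusted p = 0.728), from -4.62 in 403 to 2.44 in 5766. Arg1 was high in partly the same lymphomas, at 10.84 untreated and 10.17 after ADR in 6054 and at 9.28 and 8.82 in 3594. It went from 7.37 to 10.45 in 5766 and from 3.80 to 7.89 in 7050. After ADR, 2581 and 9584 were the highest lymphomas for C1qb, C1qc and Marco, and 5766 and 6054 the highest for Cx3cr1 and Arg1.

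**Figure D4:**
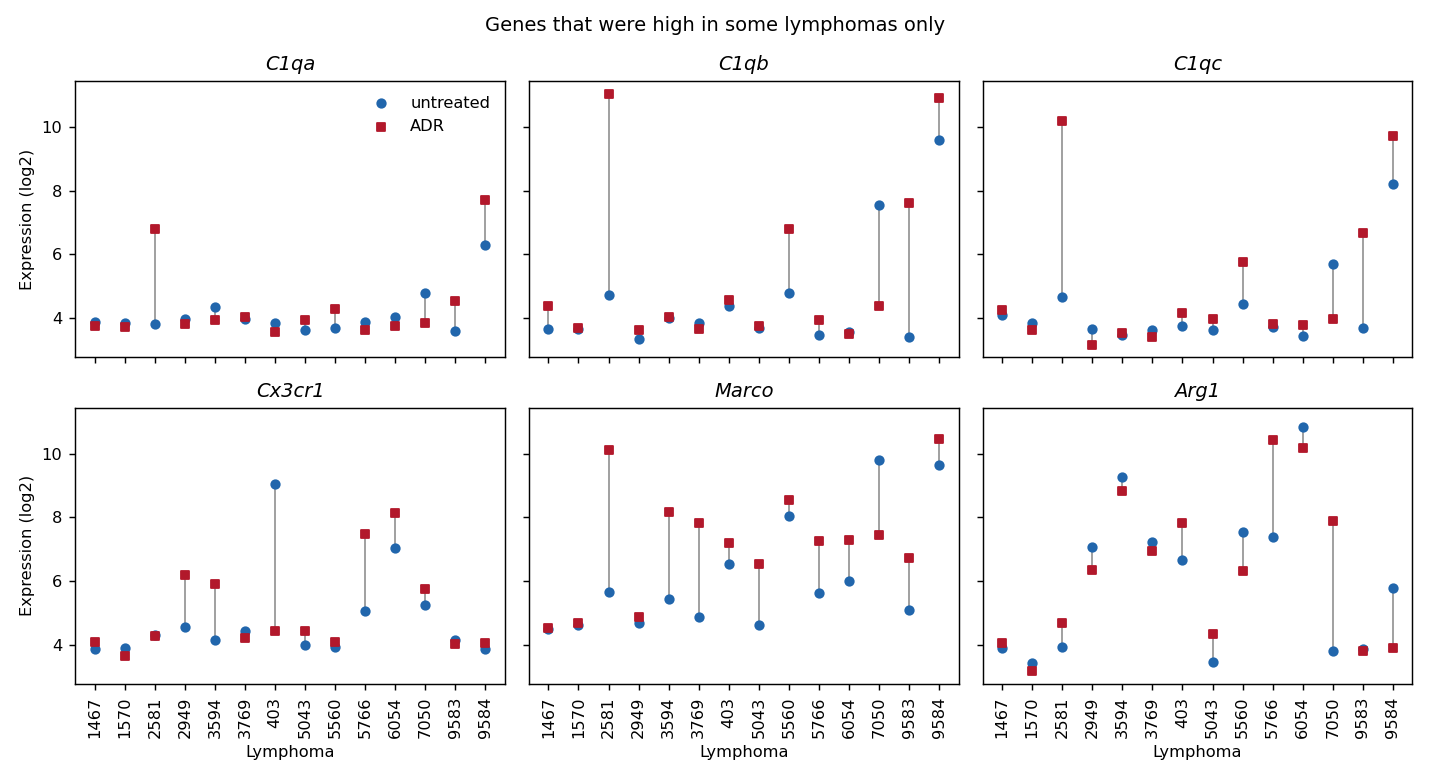
Log2 expression of C1qa, C1qb, C1qc, Cx3cr1, Marco and Arg1 in each of 14 lymphomas; blue circles are untreated, red squares ADR, and the grey line joins the pair. C1qb and C1qc are high in 2581 and 9584 after ADR, Cx3cr1 in untreated 403, and Arg1 in 6054 in both arrays.

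Most of the genes varied with Tyrobp over lymphomas in untreated and in ADR levels, and fewer did in their changes. Correlation with Tyrobp, taken as the common axis, was tested over 14 arrays or changes for the 38 other genes in each of 3 families. Among untreated arrays 23 of 38 correlated positively at a permutation p adjusted over the 38 under 0.05, and none negatively. Median r was 0.595, against 0.0397 for all genes. Adgre1 led (r = 0.945, permutation p = 1e-05, the smallest that can be reached, adjusted p = 3.04e-04, rho = 0.960, 0.921 without 5043 and 5560, 0.924 within the 11), followed by Csf1r (r = 0.929, adjusted permutation p = 3.04e-04) and Ms4a6d (0.906). After ADR, 23 of 38 passed, with Adgre1 at r = 0.949, Ms4a6d at 0.929 and Ms4a7 at 0.916. Median r over the ADR arrays was 0.731, against -0.0438 for all genes. Among the changes 14 of 38 passed, led by Sirpa (r = 0.908, permutation p = 1e-05, adjusted p = 3.80e-04, rho = 0.908, 0.891 without 2949 and 403, 0.931 within the 11), Cd68 (0.878) and Fcer1g (0.840). Median r of the changes was 0.537, against -0.01 for all genes. An r with Tyrobp above 0.7 was reached by 14 of the 38 in untreated arrays, against 1.52% of all genes. After ADR it was reached by 23, against 4.57%, and among the changes by 11, against 1.04%. With Csf1r as the axis in place of Tyrobp, 5 genes passed for the changes. The share of all genes that would pass the permutation test was not computed.

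**Figure D5:**
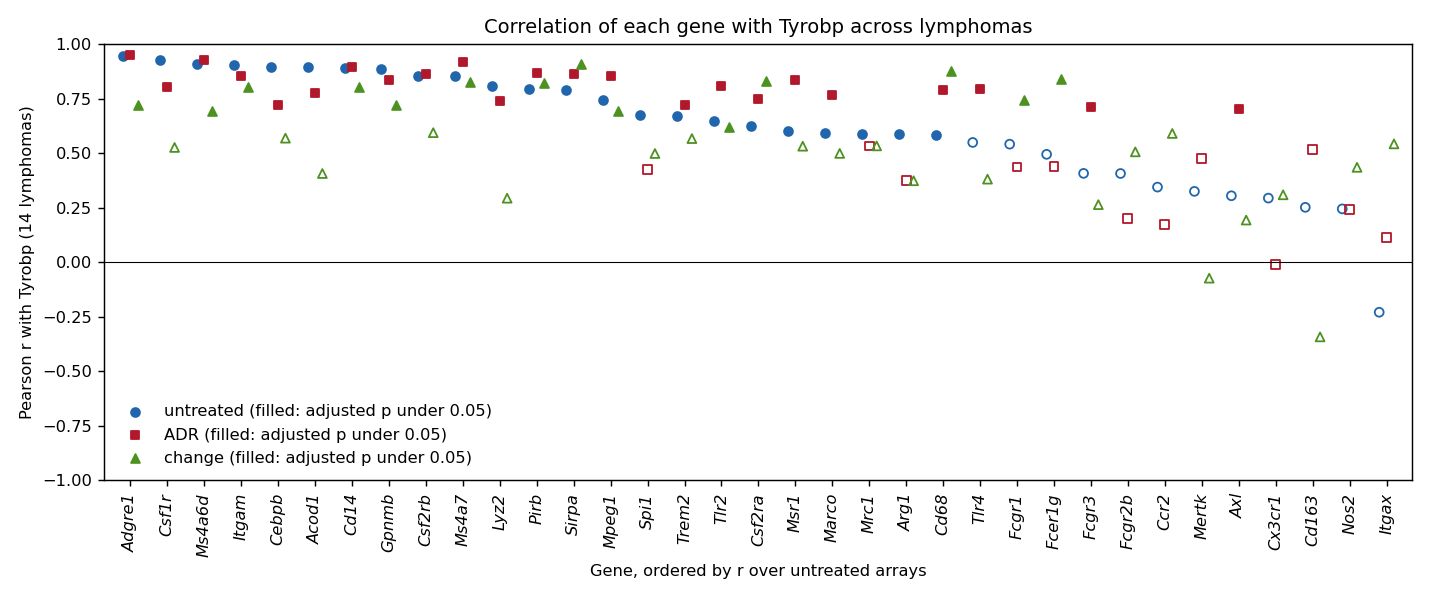
Pearson r of each of 35 genes with Tyrobp over 14 lymphomas, for untreated levels (blue circles), ADR levels (red squares) and changes (green triangles). Filled symbols passed an adjusted permutation p of 0.05. The 3 C1q genes, high in few lymphomas, are not drawn, and their r passed in none of the families. By rank C1qb did pass among untreated arrays (rho = 0.635, adjusted permutation p = 0.0295). Adgre1 has the highest r in untreated and ADR arrays and Itgax the lowest r among untreated arrays.

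The pairwise correlations of the 39 genes are given as a description. Their mean r was 0.42 over 741 pairs of untreated levels, 0.43 of ADR levels and 0.29 of changes, against values near 0.005 to 0.01 for pairs of all genes. The C1q genes stood apart, with r from 0.90 to 0.97 among themselves in untreated levels. The median r of the C1q genes with the other members was 0.28 untreated, 0.09 after ADR and -0.01 for changes. Among the other members it was 0.50, 0.53 and 0.38. Genes that are not members but lay closest to Tyrobp in untreated arrays were Hmox1 (r = 0.954), which degrades heme, Psap (0.934), Rnf149 (0.919), Mdfic (0.917), Pilrb1 (0.910), Cyb5r4 (0.908), Fth1 (0.907), Ctsb (0.903), Fech (0.899) and Capza2 (0.896). In the changes they were Necap1 (0.944), Slc31a2 (0.890), Rin2 (0.885), Mcl1 (0.884), Itgb2 (0.884), Psap (0.874), Dram2 (0.871), Atp6v1b2 (0.867), Cd52 (0.864) and Ctsa (0.858). Psap, a precursor of lysosomal activators, stood in both lists. These values describe arrays of 14 lymphomas that share preparation and scaling.

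Lymphomas high in a gene before treatment were mostly high in it after ADR. The untreated level correlated with the ADR level of the same lymphoma at an adjusted permutation p under 0.05 for 29 of 39 genes, with a median r of 0.65, against 0.33 for all genes. By r, Lyz2 (0.934, rho = 0.807), Cd14 (0.927, rho = 0.921) and Ms4a6d (0.878, rho = 0.877) stood highest, and by rank Cd14 and Gpnmb (rho = 0.886), each with an adjusted permutation p under 0.05. It was not called by r for Axl (r = -0.06), Itgax (-0.04), Spi1 (0.16), Cx3cr1 (0.37), Cd163 (0.41), Ccr2 (0.42), Tlr2 (0.49), Cd68 (0.55), Trem2 (0.55) and C1qa (0.62). By rank, Cx3cr1 (rho = 0.732, adjusted permutation p = 0.0107) and Tlr2 (rho = 0.780, adjusted permutation p = 0.00628) did pass. Of the 29, Fcgr1, Fcgr2b, Tlr4, Itgam and Mrc1 did not pass by rank (adjusted permutation p from 0.0585 to 0.121). C1qb and C1qc, which were high in few lymphomas, are among the 29. Within the 11 lymphomas of the earlier series 15 of 39 passed. The share of all genes that would pass was not computed for either count.

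Per lymphoma, the mean change of the 39 genes ran from 0.46 in 2949 and 0.61 in 403 to 1.98 in 3769 and 2.33 in 2581. In 2949, 27 of 39 genes were higher, in 403 26, and in 2581 37. After ADR the median SD of the 39 genes over lymphomas was 1.27, against 0.274 for all genes. Whether the 11 and the other 3 lymphomas differed in their change was tested for each gene by limma. None of the 39 passed (0.0055% of all genes did), 3 had an unadjusted p under 0.05, and the lowest adjusted p was 0.864. The median change was 1.40 in the 11 and 0.99 in the 3, with 38 and 37 of 39 genes higher on average.

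With the change of fibroblast markers held at 0 by regression, 14 of the 39 genes were higher and 0 lower, where 5.86% of all genes were higher. The median change was 1.13. The fibroblast marker change ran from -0.13 in 1467 and 0.47 in 5043 to 4.49 in 403, and was above 0 in 13 of 14 lymphomas. The setting of 0 thus lies at the edge of the values, and SEs were wider than in the paired fit (Fcgr1 0.72 against 0.40). Of the 29 genes called after ADR, 28 kept their direction at this setting and 15 lost their call. Acod1 (3.61 ± 0.38), Ms4a6d (3.48 ± 0.37) and Lyz2 (2.95 ± 0.46) were the largest of those called, ahead of Adgre1 (2.52 ± 0.45). Among the 15 genes that lost their call, values were close to the paired change for Fcgr1 (1.80 ± 0.72), Itgam (1.63 ± 0.51), Cd68 (1.32 ± 0.45), Fcer1g (1.26 ± 0.49) and Csf2ra (0.98 ± 0.35). They were smaller for Axl, Pirb (1.43 ± 0.51), Gpnmb (1.40 ± 0.47), Msr1 (0.75 ± 0.42), Fcgr3 (0.75 ± 0.27), Marco (0.68 ± 0.68), Trem2 (0.40 ± 0.38) and Tlr4 (0.38 ± 0.24).

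Genes outside the list gave the setting. Of 45 other macrophage-expressed genes, 33 were higher and 1 lower, with a median change of 1.04. Klf4, a monocyte transcription factor, rose by 2.62 ± 0.39 and the cytokine Il1b by 1.96 ± 0.31, the lectin Lgals3 rose from a mean of 9.11 to 11.11, and Cebpa fell by 0.31. Of 14 ligands of the receptors in the list, 7 were higher and 0 lower: the monocyte chemokine Ccl2 rose by 2.86 ± 0.38 and Ccl7 by 2.78 ± 0.42, in 14 of 14 lymphomas each, and Csf1 by 1.67 ± 0.21. These ligands are also made by fibroblasts. Il34, the second ligand of Csf1r, changed by 0.27 ± 0.11 (adjusted p = 0.0770). Of 10 neutrophil markers 3 were higher, Mmp8 by 2.51 ± 0.39, S100a8 by 2.08 ± 0.41 and Camp by 0.21 ± 0.07, while S100a9 stood at 3.35 and 3.39 on average. Of 11 T and NK cell markers 0 were called, and of 9 dendritic cell markers 0 were higher and Flt3 was lower. Of 11 B cell markers 6 were lower and 0 higher, among them Cd22 (-1.37 ± 0.15). Their part in the changes of the macrophage genes was not tested.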

How the data were processed

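The members and the gene lists were chosen with earlier results of these data known. The deposited values are log2 expression values of 45101 probe sets on 28 arrays, made by the authors with RMA and Partek 6.5 per the submitters' processing notes, which corrects the background, puts arrays on a common distribution and joins the probes of a set. A genome build is not given in the sources used here. Probe sets were named from the array's annotation: 34945 had 1 gene, 932 several, 9160 none and 64 were controls, and the last 3 kinds were left out. Each of 18193 genes was represented by its brightest probe set (mean of all arrays). The paired fit (limma 3.58.1, R 4.3.3, lmFit and eBayes) had lymphoma as a block, and calls were made at a Benjamini-Hochberg adjusted p of 0.05 across the 18193 genes. It was tested on simulated data. Pairs come from the labels; deviations from the group means had a median r of 0.48 (0.27 to 0.61) within pairs and of -0.08 between lymphomas. Each lymphoma is 1 tumour culture with 1 array per group, so spread between lymphomas includes the tumours' own differences. Correlations used 100000 permutations, with r again without the 2 lymphomas farthest from the median and within the 11; those with fibroblast markers were added after the data were seen. For values at no fibroblast change, the 14 changes of a gene were regressed on the mean change of fibroblast markers and the intercept was taken. Values over lymphomas are given for genes called in at least 13 of 14 lymphomas, the 10 with the largest untreated SD and Csf1r, Adgre1, Cd68, Lyz2 and Tyrobp, and for others chosen after their values were seen. Promoters are RefSeq, GRCm38.p6. Python 3.11.15 and matplotlib 3.10.9 drew the figures. Alternatives are in the closing section.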

Additional observations from a re-analysis of the deposited data

How the results depend on the processing

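Of the 39 genes 29 were higher with the lymphoma block. With no replicate block, which ignores the pairing, 24 were higher, Csf1r (adjusted p = 0.0532), Fcer1g (0.218), Cd14 (0.0807), Marco (0.231) and Gpnmb (0.0779) losing their call by limma. With a random replicate block 27 were higher, Fcer1g (0.0710) and Marco (0.0905) losing theirs. Leaving out each lymphoma in turn gave 27 to 29 higher and 0 lower; Mertk was called without 1570 (0.27, adjusted p = 0.0455). With the probe set of largest variance, or the mean of all probe sets, Ccr2 and Marco lost their call, and with centred arrays or quantile normalization Ccr2 and Itgax did. With the fibroblast change as a covariate 14 were higher. With Csf1r as the axis 5 changes were called in place of 14, and within the 11 lymphomas the order was kept for 15 genes in place of 29. The cause of these was not tested, and the last also rests on fewer lymphomas.

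The sign turned for genes with small changes: Fcgr2b (-0.0648, probe set of largest variance), and Cd163 (-0.0619), Mrc1 (-0.0195) and Nos2 (-6.36e-05) with centred arrays. With the fibroblast covariate Mrc1 (-0.0180), Mertk (-0.0705) and Nos2 (-0.0253) turned. Cd163 (-1.02e-03) turned within the 11, and Mrc1 without 2581 (-0.0403, in a range up to 0.118 over lymphomas left out). Axl, with a large paired change of 2.48, also turned with the fibroblast covariate (-0.198). Of these only Axl was called in the paired fit. Changes of dim genes such as Cd163 are compressed. The array number limits the precision.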
